A study of Rattus norvegicus with 30 samples.

Results

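The genes described here are 10 genes of the NF-kB, C/EBP and acute cytokine response: the adhesion molecules Icam1 and Vcam1, the feedback inhibitors Nfkbia, Tnfaip3 and Socs3, the transcription factors Cebpb and Cebpd, and the cytokines Lif, Il6 and Il1b. They were chosen by name, as the rows whose Entrez Gene identifier belongs to the rat symbol. Of these 10 genes, 9 had a row among the 17322 genes of the deposited table, and Tnfaip3 was not analysed here. The identifiers were 25464 for Icam1, 25361 for Vcam1, 25493 for Nfkbia, 89829 for Socs3, 24253 for Cebpb, 25695 for Cebpd, 60584 for Lif, 24498 for Il6 and 24494 for Il1b.

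The study followed Wistar Han rat testis by poly(A) RNA sequencing, asking how prepubertal tissue matured in organ culture differs from the testis that matures in the animal. In vivo testes were taken at 8.5 and 14.5 days post partum (dpp), at 24.5 and 30.5 dpp and at 36.5 and 53.5 dpp, with 3 libraries at each age from 3 different testes. Cultured explants came from testes dissected at 8.5 dpp, cut into 6 fragments and kept on agarose at 34 °C in αMEM with knock-out serum replacement, retinol and vitamin E. They were sampled at 4 times, D6, D16, D22 or D28, the number giving the days of culture, with 3 libraries at each time. Each culture library pooled explants of at least 3 males, and the necrotic centre of the explants was cut away before RNA was extracted, so a culture library is a pool of tissue rims. The labels name no drug treatment and no transgene for any animal. A library of 14.5 dpp, labelled as an outlier and listed at 0 for every gene, was left out, which left 17 in vivo and 12 culture libraries and only 2 libraries at 14.5 dpp. The sample titles call the ages dpc while the age field gives postnatal days. The in vivo ages were read here as dpp.

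Levels are in FPKM (reads of a gene scaled by its transcript length and by the mapped reads of the library). This scaling does not correct for a change in which transcripts make up a library. Comparisons between libraries therefore depend on it, and other scalings are described at the end. Between 12520 and 13563 genes had a value above 0 in a library, replicates correlated at 0.965 to 0.985, and the relative depth of the libraries, read from the steps of low values, ran from 0.821 to 1.49. Markers of Sertoli cells, peritubular cells and stroma were present in both kinds of tissue, as the testis label says, and so were the germ cell markers Ddx4, Dazl and Sycp3. Prm1 was listed at 0 in all 12 culture libraries and Acrv1 in 11, against means of 63.1 and 63.0 FPKM at 30.5 dpp. Piwil1 had culture means of at most 0.818 FPKM, against 85.0 to 229 from 24.5 dpp on. The summed level of 6 Leydig cell genes was 12.7 to 36.8 FPKM in culture against 66.3 to 595 in vivo.

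NF-kB is a family of transcription factors held in the cytoplasm by IκB proteins, of which Nfkbia encodes IκBα. Signals from TNF, IL-1 and Toll-like receptors lead to the loss of IκB, and NF-kB then switches on adhesion molecules, cytokines and its own inhibitors, Nfkbia and Tnfaip3 among them. Cebpb and Cebpd encode C/EBP factors that act with NF-kB and STAT3 on acute-phase and cytokine genes, and Socs3 encodes an inhibitor of the JAK-STAT signal that IL-6 and LIF send through their shared receptor chain. In the testis, resident macrophages, endothelium and Sertoli cells are among the cells known to use this pathway.

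Letters that match the binding motifs of these factors can be searched for in promoter sequence. RefSeq (assembly GRCr8) promoters were at hand here for 8 of the 10 genes, of which 7 were measured, and those of Lif and Cebpd were not used here. The 250 bases before the gene start are given on the strand of the gene, 5′ to 3′, with matches in capitals. A kB motif was written as GGNNNTTCC, a C/EBP motif as TTNNGCAA and a STAT motif as TTCNNNGAA, each searched on both strands, and none of the matches in the 4 promoters overlapped another. Vcam1 and Nfkbia were chosen because their courses over the 10 groups were the least alike of the genes with a promoter. Icam1 and Il6 were added after their values had been seen, as the gene with every culture library above the in vivo libraries and a STAT match, and as the gene with both a kB and a C/EBP match. Capitals in Icam1 mark kB matches at -218 and -149 and a STAT match at -107. Those in Vcam1 mark kB matches at -246 and -93, and those in Nfkbia kB matches at -213, -180 and -31. In Il6 they mark a C/EBP match at -152 and a kB match at -67. All positions are counted from the gene start.
Icam1 (chr8:27829595-27829844, plus strand): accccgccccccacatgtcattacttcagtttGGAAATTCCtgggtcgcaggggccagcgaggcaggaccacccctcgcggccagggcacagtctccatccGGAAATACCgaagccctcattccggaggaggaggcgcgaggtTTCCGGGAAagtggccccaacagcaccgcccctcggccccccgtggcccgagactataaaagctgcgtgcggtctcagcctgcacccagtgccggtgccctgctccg
Vcam1 (chr2:206742784-206743033, minus strand): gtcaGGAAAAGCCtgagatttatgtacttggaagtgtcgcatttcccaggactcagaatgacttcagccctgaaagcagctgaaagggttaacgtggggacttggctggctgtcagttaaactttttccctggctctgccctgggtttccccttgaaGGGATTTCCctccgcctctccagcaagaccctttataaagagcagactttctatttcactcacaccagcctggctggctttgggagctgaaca
Nfkbia (chr6:78597073-78597322, minus strand): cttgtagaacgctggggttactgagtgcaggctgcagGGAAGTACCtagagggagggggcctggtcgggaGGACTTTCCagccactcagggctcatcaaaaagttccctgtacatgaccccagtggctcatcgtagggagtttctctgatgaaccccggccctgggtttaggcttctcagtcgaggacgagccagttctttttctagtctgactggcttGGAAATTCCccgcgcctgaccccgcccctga
Il6 (chr4:5894576-5894825, minus strand): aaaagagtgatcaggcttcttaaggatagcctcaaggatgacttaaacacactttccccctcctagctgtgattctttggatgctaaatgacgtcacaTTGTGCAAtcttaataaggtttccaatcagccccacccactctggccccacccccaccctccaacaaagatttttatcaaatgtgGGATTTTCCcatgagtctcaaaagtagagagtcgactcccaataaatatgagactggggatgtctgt

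A kB match was found in 5 of the 8 promoters, those of Icam1, Vcam1, Nfkbia, Tnfaip3 and Il6. Over 33469 RefSeq promoter windows of the same length, 15.4% held a kB match, 9.22% a C/EBP match and 7.67% a STAT match. The genes were listed by name as part of the NF-kB response, so 5 of 8 beside 15.4% is no test of enrichment. No match of any of the 3 motifs lay in the windows of Socs3, Cebpb and Il1b, which says only that these letters were not in those 250 bases. The matches are a description of sequence, not measured binding, and the expression values were made on another assembly (rn6).

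Across all libraries, 4 of the 9 measured genes were higher in every culture library than in every in vivo library: Icam1, Socs3, Nfkbia and Cebpd. Of 12762 genes with a group median of at least 0.5 FPKM, 634 (4.97%) had every culture library above every in vivo library. For Cebpb, 5 of the 12 culture libraries lay above the highest in vivo library, for Il6 11, for Il1b 9, for Vcam1 3 and for Lif 2. The tissue was sequenced in bulk, so more cells of a type that carries a transcript and more transcript per cell cannot be told apart in any value given here.

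**Figure D1:**
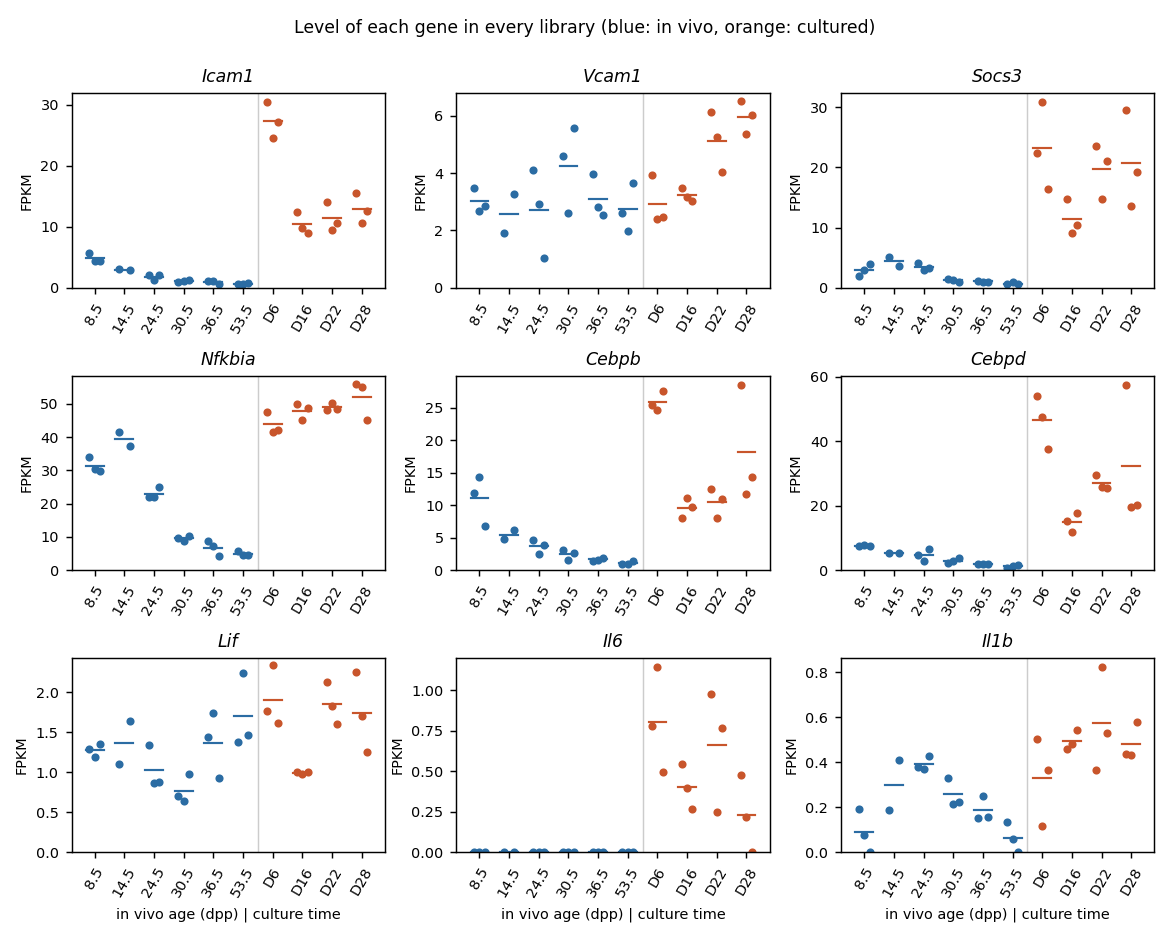
Level of each of the 9 measured genes in FPKM (vertical axis, linear) in every library, by in vivo age in dpp (blue) and culture time (orange), with a point for each library and a line at the group mean. Icam1, Socs3, Nfkbia and Cebpd have every culture point above every in vivo point, Nfkbia falls in vivo from 39.4 FPKM at 14.5 dpp to 4.93 at 53.5 dpp, and Il6 lies at 0 in all 17 in vivo libraries.

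Icam1 encodes ICAM-1, which binds leukocyte integrins on endothelium and other cells. It stood at 5.66, 4.43 and 4.34 FPKM in the 3 testes of 8.5 dpp, at 3.01 and 2.88 at 14.5 dpp, at 2.12, 1.25 and 2.05 at 24.5 dpp, and at no more than 1.29 from 30.5 dpp on. The D6 explants held 30.4, 24.5 and 27.2 FPKM, the D16 explants 12.4, 9.73 and 9.02, the D22 explants 14.0, 9.52 and 10.7 and the D28 explants 15.5, 10.6 and 12.6. Every cultured library was above the highest in vivo library, and D6 was above all later culture times with no overlap. In the order of the 10 group means, D28, D22 and D16 followed D6 and overlapped one another, then came the in vivo ages from youngest to oldest, of which those from 24.5 dpp on overlapped their neighbours.

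The comparisons used limma on log2(FPKM + 1), and a gene was called when its Benjamini-Hochberg adjusted p was at most 0.05 and its group medians differed at least 2-fold. Against 14.5 dpp, the age the D6 explants had reached, Icam1 rose by 2.84 at D6 (SE 0.136, adjusted p = 0.000463), which is 9.29-fold in the group means. The difference was 1.52 at D16 (SE 0.190), then 1.64 (D22) and 1.80 (D28) (adjusted p of the test over these 3 times and 14.5 dpp = 0.000511). Against the 8.5 dpp testes the explants were cut from, it was 2.29 at D6 and then 0.97, 1.09 and 1.25 at the 3 later times (SE 0.165, adjusted p from 2.72e-07 to 0.000251). From D6 to D16 Icam1 fell by 1.32 (SE 0.169, adjusted p = 0.000892), and from D6 to D28 it fell by 1.04 (adjusted p = 0.00155). Without replicate 2 or 3 of 8.5 dpp the D16 difference was 0.92 or 0.91, with medians less than 2-fold apart, and without replicate 2 of D28 the D28 difference from D6 was -0.92, likewise under 2-fold.

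Vcam1 encodes VCAM-1, the ligand of integrin α4 on leukocytes, and it followed another course. In vivo it ranged from 1.05 to 5.58 FPKM (median 2.86) with no order by age, and its 6 in vivo ages did not pass the F test (adjusted p = 0.527). At D6 it stood at 3.93, 2.42 and 2.47 FPKM, close to 1.90 and 3.27 at 14.5 dpp, and at D16 at 3.5, 3.18 and 3.01. It reached 6.13, 5.26 and 4.03 at D22 and 6.52, 5.38 and 6.02 at D28. The D28 libraries overlapped those of neither D6 nor 8.5, 14.5 or 36.5 dpp, but in the order of the 10 group means no gap between neighbours was free of overlap.

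Vcam1 was 0.14 higher at D6 than at 14.5 dpp (95% interval -0.44 to 0.72, adjusted p = 0.706), and this difference takes the other sign without replicate 1 of 14.5 dpp (-0.14) or replicate 1 of D6 (-0.03). It was called against 14.5 dpp at D22, by 0.79, and at D28, by 0.98 (SE 0.182, adjusted p of the F test = 0.00653). Against 8.5 dpp the difference was 0.60 at D22 (adjusted p = 0.00417, medians under 2-fold apart) and 0.80 at D28 (SE 0.153, adjusted p = 0.000564, called). D28 exceeded D6 by 0.84 (SE 0.158, adjusted p = 0.00349) and the age-matched 36.5 dpp testes by 0.78 (SE 0.150, adjusted p = 0.00177). All of these calls sat near the 2-fold limit and single libraries ended them. The D22 call against 14.5 dpp was lost without replicate 1 of 14.5 dpp (0.51) or replicates 1 or 2 of D22 (0.67 and 0.77), and that of D28 without replicate 1 of 14.5 dpp (0.70). The call against 8.5 dpp was lost without replicates 2 or 3 of 8.5 dpp (0.74 and 0.77) or replicate 1 of D28 (0.74), that against 36.5 dpp without its replicates 2 or 3 (0.73 and 0.68), and that against D6 without its replicates 2 or 3 (0.75 and 0.76).

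**Figure D2:**
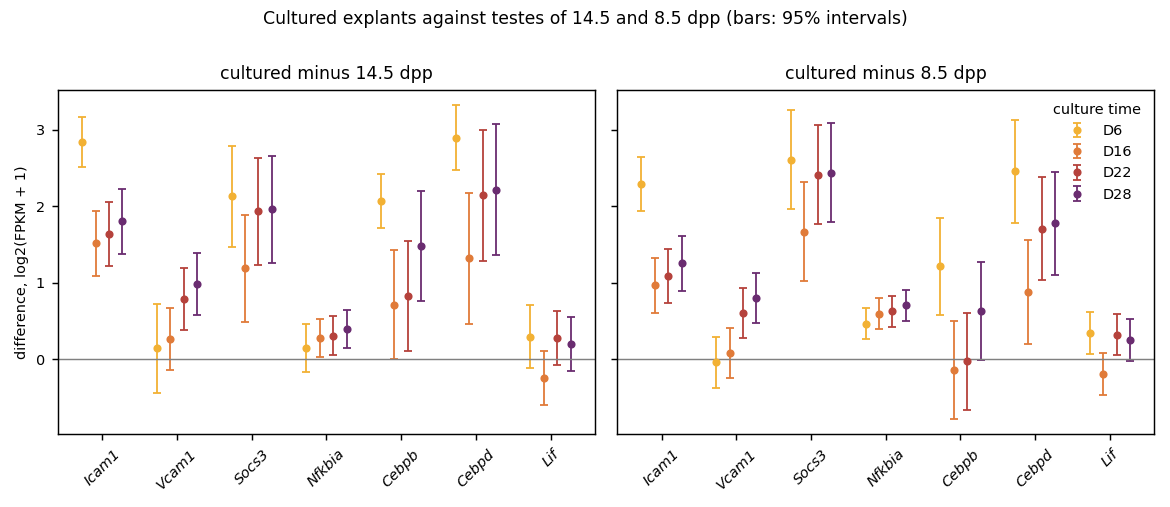
Difference between cultured explants and testes of 14.5 dpp (left) or 8.5 dpp (right) in log2(FPKM + 1) for 7 of the genes (the low cytokines Il6 and Il1b are not plotted), with a point for each culture time and bars for the 95% interval from limma. Icam1, Socs3 and Cebpd lie above 0 at all 4 times in both panels, Nfkbia stays between 0.15 and 0.71, and Cebpb is near 0 against 8.5 dpp at D16 and D22.

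Nfkbia, the gene of IκBα, had the highest level of the 9 genes in every in vivo group. Its 3 testes of 8.5 dpp held 34.1, 30.5 and 29.8 FPKM, those of 14.5 dpp 41.5 and 37.2, and those of 24.5 dpp 21.9, 22.0 and 24.9. Lower levels followed, with 9.77, 8.73 and 10.1 at 30.5 dpp, 8.68, 7.38 and 4.20 at 36.5 dpp, and 5.72, 4.46 and 4.61 at 53.5 dpp. Nfkbia thus fell 6.39-fold between 8.5 and 53.5 dpp in the group means, and of its 9 neighbouring groups in the order of levels 5 did not overlap, all of them on the way from D6 through 14.5 and 8.5 dpp to 24.5 dpp, and on to 30.5 and then 36.5 dpp. The explants held 47.7, 41.6 and 42.3 at D6, 50.1, 45 and 48.9 at D16, 48.1, 50.4 and 48.5 at D22, and 56.0, 55.1 and 45.2 at D28. All 12 culture libraries were above the highest in vivo library, by a narrow margin at D6. Neighbours in the order of the culture times (D28, D22, D16, D6) overlapped, and D6 lay below D22 without overlap.

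Against 14.5 dpp Nfkbia was only slightly higher and was called at no culture time. It was 0.15 higher at D6 (95% interval -0.16 to 0.47, adjusted p = 0.446), 0.28 higher at D16 (0.03 to 0.53), then 0.31 (D22, 0.06 to 0.56) and 0.39 (D28, 0.14 to 0.64), and the F test over the last 3 times gave an adjusted p of 0.0828. Against 8.5 dpp it was 0.47, 0.59, 0.62 and 0.71 higher (SE 0.0932, adjusted p from 2.58e-05 to 0.00117), which is 1.39- to 1.66-fold and below the 2-fold a call needs. In vivo the ages differed (adjusted p of the F test = 2.7e-09), with a fall of 1.18 from 24.5 to 30.5 dpp (SE 0.175, adjusted p = 3.57e-05). With quantile normalization that step was -0.93, still with a small adjusted p (0.000156) but with medians less than 2-fold apart.

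Socs3 encodes the feedback inhibitor of JAK-STAT3 signalling. Its in vivo libraries ran from 2.00 to 5.13 FPKM at 8.5, 14.5 and 24.5 dpp and from 0.546 to 1.49 at the 3 later ages. The explants held 22.3, 30.8 and 16.3 at D6, 14.8, 9.10 and 10.4 at D16, 23.6, 14.8 and 21.1 at D22, and 29.6, 13.6 and 19.3 at D28. Every culture library was above every in vivo library, while the culture times overlapped their neighbours in the order of levels (D6, D28, D22, D16). D6 and D16 did not overlap, but the difference of -0.94 between them did not pass (adjusted p = 0.0571). It was called in a joint fit of all 10 groups (adjusted p = 0.011) and with the replicate number as a block (adjusted p = 0.0435).

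Socs3 rose against 14.5 dpp by 2.13 at D6 (SE 0.272, adjusted p = 0.00785), 5.25-fold in the means, and by 1.19 at D16, then 1.93 (D22) and 1.96 (D28) (SE 0.314, adjusted p of the F test = 0.00376). Against 8.5 dpp it rose by 2.61, 1.67, 2.41 and 2.44 (SE 0.298, adjusted p from 1.29e-05 to 0.000366). None of these 8 calls was lost when a single library was left out. In vivo, Socs3 fell by 0.98 from 24.5 to 30.5 dpp (SE 0.164, adjusted p = 0.000103), the step at which Nfkbia fell as well.

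Cebpd and Cebpb encode C/EBPδ and C/EBPβ, transcription factors of the acute-phase response. Cebpd stood at 7.47, 7.88 and 7.35 FPKM at 8.5 dpp and at 5.37 and 5.26 at 14.5 dpp, and then between 0.707 and 6.42 at the later ages. At D6 it held 54.2, 47.5 and 37.7, at D16 15.1, 11.8 and 17.8, at D22 29.6, 25.7 and 25.4, and at D28 57.5, 19.5 and 20.1. All culture libraries lay above all in vivo libraries, the D16 libraries were below those of every other culture time, and at D28 replicate 1 stood far above the other 2.

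Cebpd rose against 14.5 dpp by 2.9 at D6 (SE 0.174, adjusted p = 0.000692), 8.74-fold in the means, and by 1.32 at D16, then 2.14 (D22) and 2.22 (D28) (SE 0.384, adjusted p of the F test = 0.00583). Against 8.5 dpp the rise was 2.46 at D6 and then 0.88, 1.70 and 1.78 at the 3 later times (SE 0.311, adjusted p from 3.12e-05 to 0.0277). The D16 call was lost without any of the 3 libraries of 8.5 dpp (0.87, 0.90 and 0.86) and without replicate 1 or 3 of D16 (0.86 and 0.75). Within culture Cebpd fell by 1.58 from D6 to D16 (SE 0.339, adjusted p = 0.0119), although without replicate 2 of D16 the adjusted p was 0.0527 (difference -1.43). D28 was at -0.68 from D6 with an adjusted p of 0.174, and without replicate 1 of D28 the difference was -1.18 with an adjusted p of 0.00162.

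Cebpb differed from Cebpd in its 8.5 dpp level, which was 11.9, 14.4 and 6.85 FPKM. It stood at 4.75 and 6.17 at 14.5 dpp and between 0.882 and 4.66 at the 4 later ages. In culture it held 25.4, 24.7 and 27.6 at D6, 8.04, 11.1 and 9.72 at D16, 12.5, 7.99 and 11.0 at D22, and 28.6, 11.6 and 14.4 at D28. The D6 libraries were above every in vivo library, whereas the D16 and D22 libraries overlapped those of 8.5 dpp, and replicate 1 of D28 was again far above the other 2.

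Cebpb rose against 14.5 dpp by 2.07 at D6 (SE 0.144, adjusted p = 0.00115), 4.74-fold in the means. At D16 the difference was 0.71, with medians less than 2-fold apart. At D22 it was 0.82 and was called by the F test over the 3 times (adjusted p = 0.0285), though its own adjusted p was 0.0704, and at D28 it was 1.48 (SE 0.321, own adjusted p = 0.00539). Against 8.5 dpp Cebpb rose at D6 by 1.21 (SE 0.295, adjusted p = 0.00433), and stood at -0.14 at D16 (95% interval -0.78 to 0.50), then -0.03 (D22, -0.67 to 0.61) and 0.63 (D28, -0.01 to 1.27). It fell by 1.35 from D6 to D16 (SE 0.268, adjusted p = 0.00839), and D28 was at -0.58 from D6 (adjusted p = 0.139).

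Several of the Cebpb calls rested on single libraries. The D22 call against 14.5 dpp was lost without either library of 14.5 dpp (0.66 and 0.98) and without replicate 1 or 3 of D22 (0.69 and 0.78). That of D28 was lost without either library of 14.5 dpp (1.32 and 1.64), and that of D6 against 8.5 dpp without replicate 3 of 8.5 dpp (0.93).

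The cytokines were low in every group. Lif encodes leukaemia inhibitory factor, a member of the IL-6 family. Its in vivo libraries ran from 0.641 to 2.24 FPKM, with the lowest group mean at 30.5 dpp, and its ages differed by the F test (adjusted p = 0.0302). The explants held 1.76, 2.34 and 1.61 at D6, 1.0, 0.976 and 1.0 at D16, 2.13, 1.83 and 1.61 at D22, and 2.25, 1.71 and 1.26 at D28. The D16 libraries were below those of the other culture times, and apart from the gap between D16 and 30.5 dpp all neighbours in the order of levels overlapped.

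Lif was called in none of the comparisons with 14.5 or 8.5 dpp. It was 0.29 higher at D6 than at 14.5 dpp (95% interval -0.12 to 0.71, adjusted p = 0.271) and stood at -0.24 at D16 (-0.59 to 0.11). From D6 to D16 it changed by -0.54 (SE 0.136, adjusted p = 0.0243) with medians under 2-fold apart. Leaving out replicate 3 of D6 turned this into a call (-0.61).

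Il6, the cytokine that signals through JAK-STAT3, was listed at 0 FPKM in all 17 in vivo libraries. In culture it was listed at 0.780, 1.14 and 0.495 at D6, 0.545, 0.395 and 0.266 at D16, 0.977, 0.249 and 0.769 at D22, and 0.475, 0.217 and 0 at D28. Thus 11 of the 12 culture libraries had a value, all near or below 1 FPKM. An exact 0 in this table can be a missing estimate, since the collagen gene Col1a2 was listed at 0 in all 29 libraries, and no fold is given for Il6. Il6 was testable only through the cultured groups in which it had a value. It was called at D6 against 14.5 dpp (adjusted p = 0.0298) and at D6, D16 and D22 against 8.5 dpp (adjusted p = 0.00197, 0.0355 and 0.00432). The call against 14.5 dpp was lost without either library of 14.5 dpp (adjusted p = 0.0857 and 0.105) or replicates 1 or 2 of D6 (0.0986 and 0.0707). That of D16 was lost without any library of 8.5 dpp (0.0733, 0.0733 and 0.0739) or replicates 1 or 2 of D16 (0.115 and 0.0733).

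Il1b, the gene of interleukin-1β, ranged from 0 to 0.427 FPKM in vivo (median 0.193) and from 0.115 to 0.823 in culture (median 0.468). It held 0.193, 0.0790 and 0 at 8.5 dpp and 0.188 and 0.409 at 14.5 dpp. The D6 libraries held 0.506, 0.115 and 0.368, those of D16 0.457, 0.480 and 0.543, those of D22 0.367, 0.823 and 0.530, and those of D28 0.438, 0.433 and 0.578. In culture, D16, D22 and D28 lay above 8.5 dpp without overlap. Libraries of 24.5 and 30.5 dpp did so too, at 0.371 to 0.427 and 0.216 to 0.332. Il1b was testable against 8.5 dpp only because the D22 median reached 0.5 FPKM, so these calls are given as values and enter no count. D16, D22 and D28 passed against 8.5 dpp with differences of 0.46, 0.52 and 0.45 (SE 0.122, adjusted p = 0.00614, 0.00249 and 0.00685), and against 14.5 dpp no call was made for D16, D22 or D28. With quantile normalization D16 (0.33) and D28 (0.28) were no longer called against 8.5 dpp. At D6 against 14.5 dpp Il1b was below the level at which genes were tested.

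Il6 and Il1b had medians below the 0.5 FPKM needed for a test at both 8.5 and 14.5 dpp and reached the filter only through cultured groups, so the counts are read without them. At D6 against 14.5 dpp 4 of the other 7 genes were called higher (Icam1, Socs3, Cebpb and Cebpd), where 630 of 11309 genes (5.57%) were and 2.37% were called lower. Their median difference was 2.07, against -0.04 over all genes tested. At D16 3 of 7 were called higher (Icam1, Socs3 and Cebpd) against a background of 6.56% higher and 5.35% lower. Both D22 and D28 had 5 of 7 (Icam1, Vcam1, Socs3, Cebpb and Cebpd) against 7.34% and 7.63% of all genes higher, and 5.51% and 6% lower. The median differences of the 7 genes were 0.71, 0.82 and 1.48 at these times, against -0.05, -0.05 and -0.08 over all genes. No gene of the list was called lower. These comparisons share the 2 libraries of 14.5 dpp.

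Against 8.5 dpp, 4 of the same 7 genes were called higher at D6, 3 at both D16 and D22, and 4 again at D28, with none lower. Icam1, Socs3 and Cebpd were called at all 4 times, joined by Cebpb at D6 and Vcam1 at D28. Over the 11539 genes tested, 9.9% were called higher and 6.23% lower at D6, 12.4% and 9.72% at D16, 13.6% and 9.92% at D22, and 13.6% and 10.5% at D28. The median differences were 1.21, 0.59, 0.62 and 0.80, against 0.06, 0.06, 0.05 and 0.04 over all genes. All 4 comparisons share the 3 libraries of 8.5 dpp.

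Within culture, 3 of 9 genes were called lower at D16 than at D6 (Icam1, Cebpb and Cebpd), where 1.69% of 11358 genes were. Between D6 and D28, Icam1 was called lower and Vcam1 higher, against backgrounds of 2.65% lower and 3.04% higher. Leaving out replicate 1 of D28 added Cebpd.

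With normal maturation Icam1, Socs3, Nfkbia, Cebpb and Cebpd fell, in a tissue where most genes changed. Of the 7 genes tested over the 6 in vivo ages, 6 were called (all but Vcam1), where 90.2% of 12531 genes were, so the count is no more than the background. Lif was among the 6 but had means of 1.28 FPKM at 8.5 dpp and 1.70 at 53.5 dpp. Between 8.5 and 53.5 dpp the group means dropped 7.82-fold for Icam1, 10.3-fold for Cebpb, 6.85-fold for Cebpd and 4.18-fold for Socs3, beside the 6.39-fold of Nfkbia, and the libraries of these ages overlapped for none of these 5 genes. Over all 12531 genes, 59% had every library of 53.5 dpp below every library of 8.5 dpp, and 35.5% had a mean at 53.5 dpp at least 4-fold lower. The germ cell markers summed to a mean of 27.8 FPKM at 8.5 dpp and 5354 at 53.5 dpp, and their part in these falls was not tested. Adjusted p values of the F test were 5.75e-08 for Icam1, 7.57e-07 for Socs3, 1.51e-06 for Cebpb and 1.72e-06 for Cebpd. Between neighbouring ages, the only calls were Cebpb from 8.5 to 14.5 dpp (-0.85, adjusted p = 0.023) and Socs3 and Nfkbia from 24.5 to 30.5 dpp. Over all genes, 6.32% were called lower at the first step, 21.4% from 14.5 to 24.5 dpp, 24.5% from 24.5 to 30.5 dpp, and 1.4% and 3.93% at the last steps. The Cebpb step was lost without replicate 1 or 2 of 8.5 dpp (-0.77 and -0.65) and without either library of 14.5 dpp (-0.69 and -1.01).

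Compared with testes of the same age, the differences were larger for most of the genes. D16 against 24.5 dpp called 5 of 7 genes higher (Icam1 by 2.02, Socs3 by 1.47, Nfkbia by 1.03, Cebpb by 1.2 and Cebpd by 1.54, adjusted p from 7.05e-05 to 0.00155), against a background of 25.3% of 11658 genes. Without Il6 and Il1b, which reached the filter only through D22, D22 against 30.5 dpp called 6 of 7 (background 42.1% of 12118 genes). There Icam1 was 2.53 higher, Socs3 3.20, Nfkbia 2.25, Cebpb 1.74 and Cebpd 2.86, and Lif was 0.69 higher (SE 0.117, adjusted p = 0.00105), its only call against an in vivo age.

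D28 against 36.5 dpp called 6 of 7 (background 46.7% of 12210 genes). Socs3 was 3.35 higher (SE 0.249, adjusted p = 8.35e-06), 20.0-fold in the means, Cebpd 3.39 (18-fold, and 11.0-fold without replicate 1 of D28), Icam1 2.85 (13.9-fold), Cebpb 2.76 (11.0-fold) and Nfkbia 2.82 (7.71-fold), while Vcam1 was 0.78 higher. For Nfkbia the 36.5 dpp libraries held 4.20 to 8.68 FPKM and the D28 libraries 45.2 to 56.0. The median difference of the genes was 1.2 for D16, 2.25 for D22 and 2.82 for D28. Over all genes tested it was 0.12, 0.51 and 0.64, so the genes of the list are to be read against a shift of most genes in the same direction. The germ cell markers summed to 1203 to 1593 FPKM at 36.5 dpp and to 53.4 to 119 at D28, and their part in these results was not tested. Without replicate 2 or 3 of 36.5 dpp the Vcam1 call was lost (0.73 and 0.68), as it was with quantile normalization (0.29, adjusted p = 0.0639).

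Whether these age-matched differences changed with time was tested directly, as the difference at D16, D22 or D28 minus that of D6 against 14.5 dpp. Of the genes other than Il6 and Il1b, 3 passed at D16 (Icam1, Nfkbia and Cebpd), where 48.8% of 12623 genes did. At D22 2 passed (Nfkbia and Socs3), against 73.9%, and at D28 the same 2, against 77.8%. Il6 passed at D28 too, but it was listed at 0 in vivo, so its value of -0.56 is only D28 minus D6 and enters no count. Tested directly, D28 against D6 did not pass for Il6 (adjusted p = 0.0648). Nfkbia passed at all 3 times, with 0.88 at D16, and then 2.10 (D22) and 2.67 (D28).

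**Figure D3:**
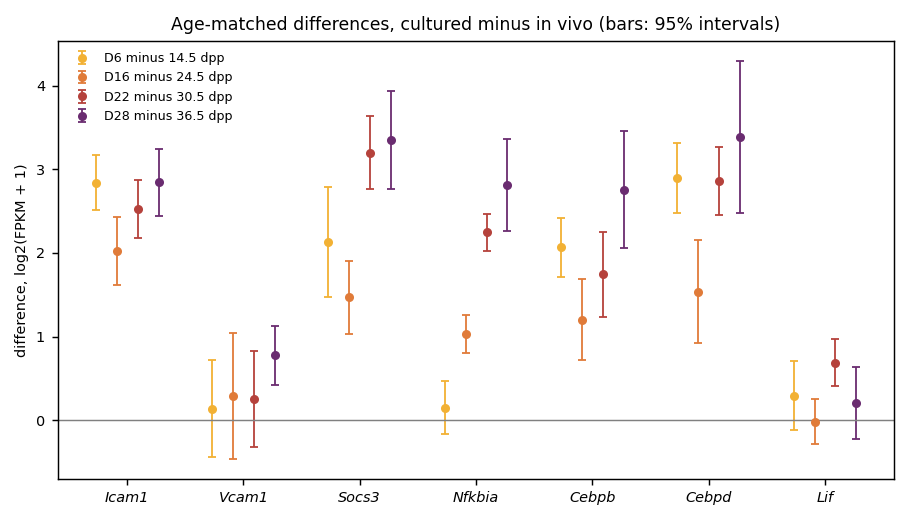
Difference between cultured explants and testes of the same age in log2(FPKM + 1) for 7 genes, with a point for each of the 4 matched pairs and bars for the 95% interval from limma. Nfkbia goes from 0.15 at D6 to 2.82 at D28, Icam1 has its lowest value, 2.02, at D16, and Vcam1 lies clear of 0 only at D28.

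Other genes of the pathway were counted by the same calls, here with genes that reached the filter only through cultured groups left in. Such genes are high in culture by the filter itself, so the counts describe the lists and are no test of them. Against 14.5 dpp, Il1rn (mean 0.0567 FPKM at that age), Itgb2 (0.427) and Itga4 (0.243) were among them, beside genes named below. Every count below is to be read against the same backgrounds. Against 14.5 dpp these were 5.57% of all genes called higher for D6 and 6.56%, 7.34% and 7.63% for the 3 later times. Of 13 measured NF-kB subunits, inhibitors and kinases, 3 were called higher at D6 against 14.5 dpp, 0 at D16, 2 at D22 and 1 at D28, with none lower, and 4 were higher at D28 against 8.5 dpp. Their median differences against 14.5 dpp ran from 0.15 to 0.25. Bcl3, an IκB family member that acts in the nucleus, led them, with 1.80 at D6 (SE 0.194, adjusted p = 0.00472) and 1.82 at D28 against 14.5 dpp (SE 0.228, own adjusted p = 0.000303) and 2.82 against 8.5 dpp. Its group means were 0.148 FPKM at 8.5 dpp, 1.34 at 14.5 dpp, 7.0 at D6 and 7.27 at D28. Against 8.5 dpp Bcl3 thus reached the filter only through culture. The subunit gene Rela had group means of 57.5 FPKM at 14.5 dpp and 60.3 to 65.2 in culture, and Nfkb1 of 6.32 and 7.53 to 9.70.

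Among 21 tested ligands, receptors and adaptors of TNF, IL-1 and Toll-like receptor signalling, 5 were called higher at D6 against 14.5 dpp, 2 at D16, 6 at D22 and 7 at D28, with none lower. Tnfrsf1a, the main TNF receptor, rose by 1.5 at D6 (SE 0.156, adjusted p = 0.00428) and by 1.22 at D28 (SE 0.191), with group means of 14.5 FPKM at 14.5 dpp, 43.1 at D6 and 35.9 at D28. Myd88, the adaptor of IL-1 and Toll-like receptors, led the 5 genes called against 8.5 dpp at D28, with 1.03 (SE 0.112, adjusted p = 4.62e-06). The ligand gene Tnf was listed at 0 in every group.

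Of the IL-6 family and JAK-STAT genes, 17 or 18 were tested and 2 were called higher and none lower at each culture time against 14.5 dpp. Osmr, a receptor chain for oncostatin M, rose by 2.11 at D6 (SE 0.124, adjusted p = 0.000666) and 2.44 at D28 (SE 0.181), from a mean of 0.436 FPKM at 14.5 dpp to 5.22 and 6.91. Its mean at 8.5 dpp was 0.0719 FPKM, and against both ages it reached the filter only through culture. At D28 against 8.5 dpp 4 were higher and 1 lower, the cytokine gene Clcf1 (-1.12, SE 0.116, adjusted p = 2.89e-06). Il6st, the shared receptor chain of IL-6 and LIF, had means of 41.2 FPKM at 14.5 dpp and 58.9 to 70.1 in culture. None of the 4 other C/EBP family genes tested was called against 14.5 dpp, and their median differences were -0.21 to -0.34.

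Of the 13 acute-phase genes listed, 5 to 7 were tested and 1 was called higher and none lower at each time against 14.5 dpp. Ptx3, which encodes a secreted pattern-recognition protein, rose by 0.81 at D6 (SE 0.149, adjusted p = 0.0219) and by 0.35 at D28 (SE 0.107). Its mean was 0.212 FPKM at 14.5 dpp, so it reached the filter only through culture. At 8.5 dpp the mean of Ptx3 was 0.776 FPKM, against 1.14 at D6 and 0.549 at D28. Serpina3n, a serine protease inhibitor, rose by 1.0 at D28 against 8.5 dpp (SE 0.265, adjusted p = 0.00547). It was listed at 0 at 8.5 dpp and had a mean of 1.18 FPKM (SD 1.15) at D28, so it too was testable only through culture. Of 7 tested adhesion molecules and integrins beside Icam1 and Vcam1, 2 were called higher at D6 and 3 at each later time against 14.5 dpp, with none lower. Icam2 rose by 1.10 at D6 (SE 0.140, adjusted p = 0.00785), and Selp, the gene of P-selectin, by 1.19 at D28 against 14.5 dpp (SE 0.168) and 2.41 against 8.5 dpp (SE 0.107). The mean of Selp at 8.5 dpp was 0.0852 FPKM, so against that age it reached the filter only through culture. Madcam1, an adhesion molecule of mucosal vessels, fell by 1.0 at D28 against 8.5 dpp (SE 0.139).

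Markers of cells that can carry these transcripts also moved. The summed level of 12 macrophage genes was 46.3 to 49.9 FPKM at 14.5 dpp, 69.8 to 85.9 at 8.5 dpp, 36.4 to 46.6 at 24.5 dpp, 47.9 to 102 at 30.5 dpp, 126 to 140 at 36.5 dpp, 92.4 to 118 at D6, 91.4 to 102 at D16, 89.5 to 140 at D22 and 100.03 to 182 at D28. Of 10 tested, 7 were called higher at D6 against 14.5 dpp, 5 at D16, 4 at D22 and 5 at D28, with none lower. The backgrounds over all genes were 5.57%, 6.56%, 7.34% and 7.63% higher. Adgre1, with a mean of 0.0994 FPKM at 14.5 dpp, was among the 10 and reached the filter only through culture. At 53.5 dpp the sum was 233 to 271, of which Aif1 alone made a mean of 213, and at 36.5 dpp Aif1 made 101. The macrophage genes did not share a course with age. Adgre1 (means of 0.251 FPKM at 8.5 dpp and 3.55 at 53.5 dpp), Mrc1 (10.3 and 14.7) and Cd163 (0.0992 and 0.825) rose as Aif1 did. Cd68 (mean 0.602 FPKM), Csf1r (0.38), Cd14 (0.442) and Ptprc (0.109) had their lowest group means at 53.5 dpp. C1qa, C1qb and C1qc were lower at 53.5 than at 8.5 dpp, with their lowest group means at 36.5 dpp. Cd163 was listed at 0 in all 12 culture libraries and Itgam in 28 of 29 libraries.

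The sum of 8 endothelial genes was 30.7 to 36.8 FPKM at 14.5 dpp, 50.2 to 53.1 at 8.5 dpp, 75.5 to 85.3 at D6, 77.6 to 94.6 at D16, 61.1 to 99.7 at D22, 55.3 to 86.7 at D28, and between 2.71 and 15.1 from 24.5 dpp on. Of 7 tested at D6 against 14.5 dpp 5 were called higher (background 5.57% of all genes). Of 8 tested at the later times, 4 were called higher at D16, 3 at D22 and 3 at D28, with 1 lower at D28. The backgrounds there were 6.56%, 7.34% and 7.63% higher. Vwf had means of 0.484 FPKM at 14.5 dpp and 0.481 at D28, and Emcn had 2.16 and 0.654. A list of 5 T cell genes summed to 6.99 to 10.8 at 14.5 dpp, 28.1 to 29.1 at D6 and 16.4 to 17.7 at D28, mostly Cd8a, while Cd3d and Cd3g were listed at 0 in all 12 culture libraries. Cd8a and Cd4 had higher means in every culture group than in every in vivo group. Cd3e did not, with means of 0.326 FPKM at 8.5 dpp, 1.10 at 14.5 dpp and 3.64 at 24.5 dpp. In culture its means ran from 0.793 at D6 to 1.09 at D28. The T cell sum is therefore read as the level of these genes, not as a number of T cells. Neutrophil genes summed to at most 2.05 FPKM in any library, and S100a8 was at 0 in all 29. The part of macrophages, endothelium and T cells in the results of Icam1, Vcam1, Socs3, Cebpb, Cebpd, Il6 and Il1b was not tested.

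**Figure D4:**
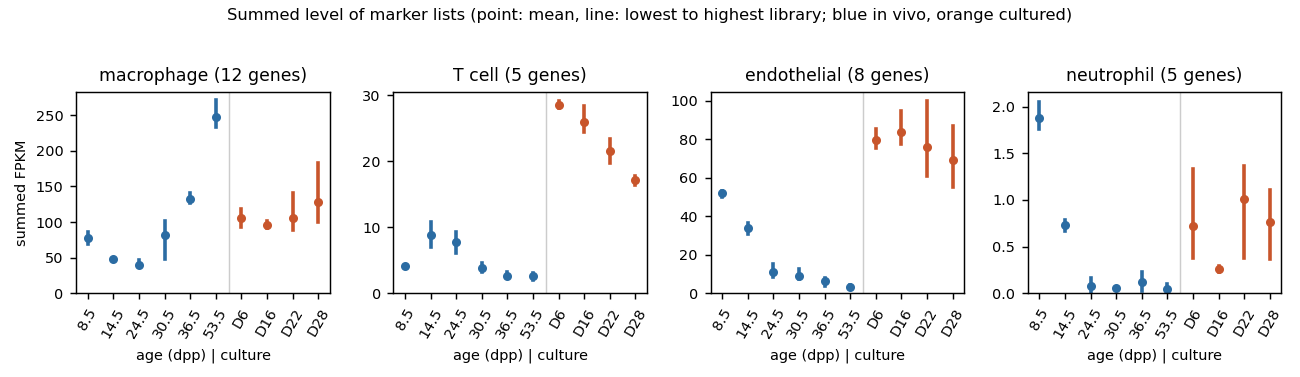
Summed FPKM of 4 marker lists by in vivo age in dpp (blue) and culture time (orange), with a point at the group mean and a line from the lowest to the highest library. The endothelial and T cell sums are higher in every culture group than in every in vivo group. In culture the T cell sum is mostly Cd8a, and Cd3e has its highest group mean at 24.5 dpp. The macrophage sum is highest at 53.5 dpp, where Aif1 alone makes a mean of 213 FPKM, and the neutrophil sum stays at or below 2.05 FPKM.

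Over the 10 group means on the log2(FPKM + 1) scale, the courses of Icam1 and Cebpd were the most alike within the list (Pearson r = 0.987), followed by Cebpd with Socs3 (0.979). Nfkbia and Vcam1 had an r of 0.317, and Lif and Il1b 0.0676. Among 12051 other genes, the closest to Icam1 were Phlda1 (r = 0.996) and Adora2a (0.993), and the closest to Socs3 were Junb (0.993) and Srebf1 (0.988). Cebpd was closest to Il1r1 (0.996), the IL-1 receptor gene, and Rgs16 (0.983), and Cebpb to Alkbh4 (0.983) and Art4 (0.982). Nfkbia was closest to Lpar2 and Cdc42ep2, both with an r of 0.999. Genes closest to the remaining members were Olr1433 (0.940) and Wbp2 (0.926) for Vcam1, Arhgap27 (0.863) and Epn1 (0.823) for Lif, Pgr (0.965) and Trib3 (0.962) for Il6, and Bag4 (0.982) and Suco (0.981) for Il1b. These values describe 10 group means from the same 29 libraries and carry no test.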

How the data were processed

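Poly(A) RNA was sequenced as 50 bp single reads. The authors aligned them with STAR 2.5.2a to rn6 and deposited FPKM per gene, quantified with StringTie and Ballgown. No read counts entered the work and the counting error behind an FPKM is unknown, and exact zeros can be missing estimates. Rows were named through RefSeq by Entrez identifier (17172 of 17322 matched). Groups came from the sample labels.

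FPKM were compared as log2(FPKM + 1) with limma 3.58.1 (R 4.3.3), which tests each gene with a spread shared across genes. A gene was tested if some group of the fit had a median of 0.5 FPKM or more, and p values were adjusted by Benjamini-Hochberg over all of them. D16, D22 and D28 were fitted with 14.5 dpp together and called by the F test, 8.5 dpp with all culture times, D6 and the age-matched groups in pairs. A fold change on this scale understates the change of low genes. The method was tested on simulated data with planted shifts larger than 2-fold in genes above 1 FPKM. That test does not cover calls near the 2-fold limit or genes below 1 FPKM. Members, gene lists and tests were chosen with earlier results of these data known. Beyond the members, the text names the most changed called gene of each list and the 2 genes most like each member. Alternatives were a pseudocount of 0.1, a filter of 1 FPKM or none, quantile normalization, rescaling to a common total, a ratio of 1.5, a joint fit, the replicate block and leaving out each library.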

Additional observations from a re-analysis of the deposited data

Results flagged for a closer look

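Whether a difference between culture and testis of the same age changed with time was tested as (culture minus age-matched testis at D16, D22 or D28) minus (D6 minus 14.5 dpp), in log2(FPKM + 1) with limma. An adjusted p of at most 0.05 was reached by 48.8% of 12623 genes at D16, 73.9% at D22 and 77.8% at D28, and the median over all genes was 0.11, 0.47 and 0.61. The values below share the libraries of D6 and 14.5 dpp.

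For Nfkbia the difference was larger than at D6 by 0.88 at D16 (SE 0.235, adjusted p = 0.00457), by 2.10 at D22 (adjusted p = 2.58e-07) and by 2.67 at D28 (adjusted p = 7.79e-09). For Socs3 it was larger by 1.07 at D22 (SE 0.373, adjusted p = 0.0153) and by 1.22 at D28 (adjusted p = 0.00612). The D22 value was 0.88 with an adjusted p of 0.0801 without replicate 1 of 14.5 dpp, and 0.82 with 0.071 after quantile normalization.

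For Icam1 the difference was smaller at D16, by -0.82 (SE 0.249, adjusted p = 0.011), with -0.69 and an adjusted p of 0.108 at a pseudocount of 0.1. For Cebpd it was also smaller at D16, by -1.36 (SE 0.460, adjusted p = 0.0205). Its adjusted p was 0.0541 or 0.0538 without replicate 1 or 2 of 14.5 dpp, 0.0533 without replicate 3 of 24.5 dpp and 0.0513 without replicate 2 of D16. For Il6 the change from D6 to D28, tested directly, did not pass (adjusted p = 0.0648). With Il6 listed at 0 in vivo, the value flagged at D28 is that same change and no fold, -0.56 (SE 0.233, adjusted p = 0.0372). It missed the threshold without either library of 14.5 dpp, any of the 3 of 36.5 dpp, replicate 1 or 2 of D6, or replicate 2 or 3 of D28, with adjusted p of 0.0534 to 0.109.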

How the results depend on the processing

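Of 144 recomputed counts of called genes under the alternatives that keep all libraries, 140 stayed within 1.5 times the main count. These counts include Il6 and Il1b where tested, which makes 5 of 9 at every time against 8.5 dpp. Rescaling every library to a common total gave 3 of the 9 genes at D22 against 14.5 dpp, quantile normalization gave 3 at D16 against 8.5 dpp, and a filter of 1 FPKM gave 3 at D16 and 3 at D22 against 8.5 dpp. Leaving out single libraries gave 3 to 5 at D22 and at D28 against 14.5 dpp, 2 to 4 at D16 against 8.5 dpp, 1 to 4 for D28 against D6 and 1 to 3 for the change of the difference at D22. A fit that left 1 library at 14.5 dpp assumed that it varied like the other groups. The 72 called differences were recomputed under 1169 alternatives, of which 1099 kept the call, 70 lost it and 0 changed sign. Cebpb at D22 against 8.5 dpp changed sign after rescaling (0.069), and ranged from -0.31 to 0.17 without single libraries, as Cebpb at D16 did from -0.42 to 0.066 and Vcam1 at D6 against 14.5 dpp from -0.14 to 0.42. The cause was not tested.

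Same-numbered libraries of different culture groups had deviations correlated from -0.131 to 0.218 (median 0.048, 5 of 18 pairs above 0.1). Differently numbered ones ran from -0.326 to 0.310 (median -0.017, 2 of 36 pairs above 0.1). Whether the replicate numbers pair the libraries was not tested, and the main fits did not use them. With the replicate block, 17 of 17 counts of called genes stayed within 1.5 times. The block ended the calls of Il6 at D6 (adjusted p = 0.0585) and of Cebpb at D22 and D28 against 14.5 dpp, and added Socs3 for D16 against D6 (adjusted p = 0.0435). Against 14.5 dpp, over all genes, the count at D6 went from 898 to 376 with the block and to 406, 564 or 510 without replicate 1, 2 or 3 of D6. With a ratio of 1.5 it went to 1622, and those of the later times from 1371, 1480 and 1570 to 2518, 2682 and 2904. Against 8.5 dpp that ratio gave 3486, 4530, 4776 and 4780 in place of 1861, 2550, 2712 and 2773, and against D6 939 (from 341) and 1540 (from 646). For neighbouring ages it gave 3590 (from 1841, and 1200 without replicate 2 of 14.5 dpp), 7217 (from 4715), 2348 (from 938) and 2842 (from 820, and 1533 rescaled). Quantile normalization moved the share of higher calls from 61.4% to 50.7% at D6 against 8.5 dpp, from 34.9% to 45.3% for 30.5 against 24.5 dpp and from 40% to 84.6% for 53.5 against 36.5 dpp. Rescaling moved the last to 18.7%, that of 14.5 against 8.5 dpp from 57% to 70% and that of 36.5 against 30.5 dpp from 81.2% to 64.7%. The median over all genes for D28 against 36.5 dpp was 0.64, 0.43 after quantile normalization and 0.79 after rescaling. FPKM without counts leave the error of genes below 1 FPKM, here Il6 and Il1b, unknown.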
